A study of Drosophila melanogaster with 9 samples.

Results

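The occupancy of RNA polymerase II (Pol II) was compared between bam testis and cultured S2 cells of Drosophila melanogaster. Both Pol II ChIP-seq libraries of the series were used, which are 2 of its 9 samples, and their kept reads were counted in 240738 tiles of 500 bp along chromosome arms 2L, 2R, 3L, 3R, 4 and X. The bam testis sample came from bam1/bam114-97 males, which carry 2 mutant alleles of bag of marbles, a gene that germ cells need to leave the spermatogonial stage. For each ChIP 200 pairs of testes were pooled, and this tissue holds germline stem cells, spermatogonia and somatic cells of the testis together. S2 cells are a line grown from embryos, of which 20000000 were used per ChIP. The same antibody, 4H8, which binds initiating and elongating Pol II, was used for both. The testes were fixed with formaldehyde and their chromatin was sheared by sonication, whereas S2 cells were taken up in a digestion buffer, and neither fixation nor sonication of them is given in the sources used here. There was 1 library on each side, so no test and no p-value could be given, and a difference between the samples cannot be told apart from a difference between the libraries or their preparation. All intervals are at 95% and cover counting error only. The cell types could not be checked against marker genes, because no gene annotation of the genome build (dm3) was used here.

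Pol II transcribes all protein-coding genes. At many fly genes it starts transcription and then halts a short way downstream of the start site, held by pausing factors, until a kinase releases it into the gene body. A paused gene therefore shows a sharp Pol II peak at its start and little signal beyond it, whereas a gene with elongating Pol II shows signal along its length. In the germline of the testis, many genes of sperm formation stay silent until the spermatocyte stage, which bam mutant germ cells do not reach.

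The bam testis library held 1342183 kept reads and the S2 cell library 1924876, of which 1277475 in bam testis and 1871779 in S2 cells lay on the 6 arms. Read density is given as reads per kb and per 1000000 kept reads (RPM per kb). Most tiles of the bam testis library lay at moderate density, with a median of 5.96 RPM per kb, against 4.16 RPM per kb in S2 cells. The order turned round among the densest tiles. The 99th percentile was 40.2 RPM per kb in bam testis and 76.9 RPM per kb in S2 cells, and the densest tile held 206 reads (307 RPM per kb) in bam testis and 880 reads (914 RPM per kb) in S2 cells. With both libraries thinned to 1277475 reads, the densest 1% of tiles (2407 tiles) held 7.49% of the reads in bam testis (Wilson interval 7.44% to 7.53%) and 19.0% in S2 cells (18.9% to 19.0%). At that depth the ratio of variance to mean of the tile counts was 6.18 in bam testis and 30.4 in S2 cells. The S2 cell library thus placed more of its Pol II reads in few tiles.

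**Figure D1:**
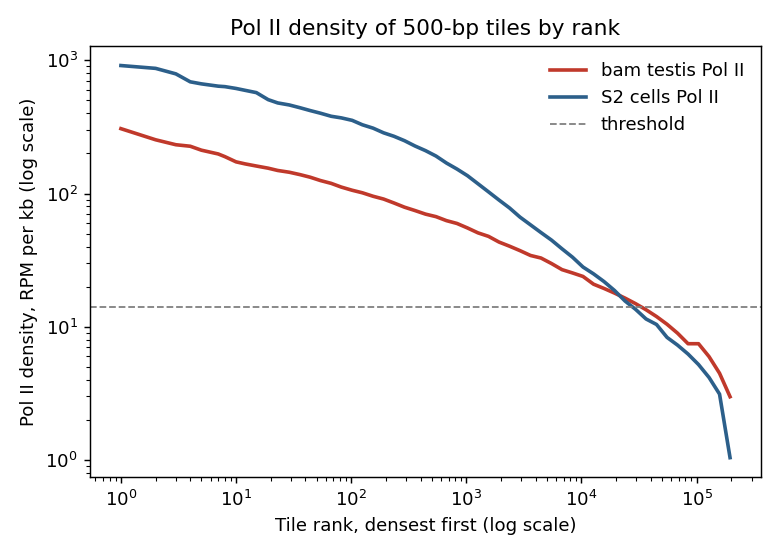
Pol II density of each 500-bp tile (RPM per kb, log scale) against its rank from the densest (log scale), in bam testis (red) and S2 cells (blue), with the threshold of 14 RPM per kb dashed. The bam testis curve lies below the S2 cell curve at the densest tiles (307 against 914 RPM per kb at rank 1) and above it at the median (5.96 against 4.16 RPM per kb).

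A tile was called occupied at 14 RPM per kb or more, a level set after the study's Poisson rule, which was 10 reads in bam testis and 14 in S2 cells. For bam testis Pol II the study itself required a higher read count than this in 500 bp. In bam testis 31815 tiles (13.2%) passed and in S2 cells 28594 tiles (11.9%). The reads on the arms, spread evenly at each depth, would bring 4.44% of tiles in bam testis and 2.80% in S2 cells past the threshold. Both libraries passed at 15824 tiles, which were 49.7% of the bam testis tiles and 55.3% of the S2 cell tiles. Over all tiles the densities had a Spearman rho of 0.54, given as a description because neighbouring tiles share fragments. Sharing grew with density. Of the 998 tiles at 56 RPM per kb or more in bam testis, 97.0% were occupied in S2 cells, and of the 3876 such tiles in S2 cells 86.0% were occupied in bam testis. The densest Pol II sites of bam testis were thus nearly all sites in S2 cells too, while their ranks differed: of the 100 densest tiles of each library, 20 were the same, and of the 1000 densest, 457. Occupied tiles lay in 15092 runs of adjacent tiles in bam testis and 12000 in S2 cells, of which 60.2% in bam testis and 53.3% in S2 cells were single tiles. At 28 RPM per kb or more the order was the same, at 68.25% of runs in bam testis and 59.7% in S2 cells. It turned round among the densest 1% of tiles at equal depth, with 77.8% in bam testis and 83.6% in S2 cells. The longest run of occupied tiles spanned 29 kb in bam testis (chr2R:6402501-6431500) and 34.0 kb in S2 cells (chr3R:25589501-25623500).

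A tile was called higher in one library where it was occupied there and at least 4-fold denser than in the other, with a lower count under 3 reads set to 3. This gave 3974 tiles higher in bam testis (1.65% of all tiles) and 3566 higher in S2 cells (1.48%). The floor of 3 reads was a higher density in bam testis, the library with fewer reads. The rule was therefore stricter for tiles higher in S2 cells where the other library was nearly empty. The similar counts covered different densities. Tiles higher in bam testis had a median of 17.9 RPM per kb in bam testis and 3.12 RPM per kb in S2 cells, close to the threshold. Tiles higher in S2 cells had a median of 5.96 RPM per kb in bam testis and 39.5 RPM per kb in S2 cells. At 28 RPM per kb or more in the higher library, 488 tiles were higher in bam testis and 2441 in S2 cells. These were 7.31% of the 6677 bam testis tiles at that level and 22.6% of the 10782 S2 cell tiles. Part of the contrast in counts is thus the larger number of S2 cell tiles that reach this level. With both libraries thinned to equal depth, 2863 tiles were higher in bam testis (42.7% of the calls) and 3838 in S2 cells. The split between the directions also depended on the scaling: tiles higher in bam testis were 52.7% of the calls, 40.8% with bam testis densities matched to the S2 cell quantiles, 63.2% with reads on the arms as the denominator, and 81.0% with a median ratio of 1 over the tiles occupied in both. Which sample had more tiles of higher Pol II was therefore not settled by these counts, whereas the excess of S2 cells at 28 RPM per kb or more held under all 4 scalings (1864 tiles in bam testis and 2564 in S2 cells after quantile matching, 607 in bam testis and 2357 in S2 cells by reads on the arms, 1188 in bam testis and 1821 in S2 cells by tiles occupied in both).

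**Figure D2:**
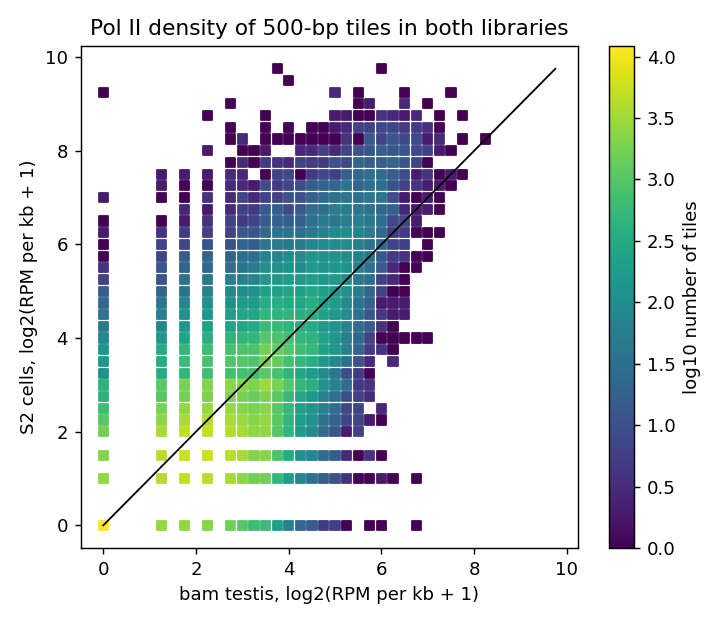
Number of 500-bp tiles (colour, log10) by Pol II density in bam testis (horizontal axis) and S2 cells (vertical axis), both as log2(RPM per kb + 1), with the line of equal density. The densest tiles lie above the line, up to 914 RPM per kb in S2 cells against 307 RPM per kb in bam testis.

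The 5 named regions higher in bam testis were short. They were chosen among called tiles on the same reads that give their values. A difference of at least 4-fold was therefore set by the choice, and the intervals do not allow for it. The run with the densest tile lay at chr3L:10632001-10633500 (dm3) and held 89.4 RPM per kb in bam testis (180 reads) and 11.8 RPM per kb in S2 cells (34 reads), a 7.59-fold difference (interval 5.24 to 11.3). The run at chr3R:15006001-15007000 was 8.52-fold higher in bam testis (5.07 to 15.2), with 101 reads in bam testis and 17 in S2 cells. The run at chr3L:17230501-17231500 was 4.25-fold higher (2.72 to 6.84). Both other runs had 1 read in S2 cells. At chr2R:3038001-3038500 bam testis had 78 reads (116 RPM per kb), and its H3K4me3, H3K27me3 and H3K36me3 libraries had 4.27, 6.44 and 9.38 RPM per kb. At chrX:8188001-8190000 bam testis had 187 reads (69.7 RPM per kb), while its H3K4me3, H3K27me3 and H3K36me3 libraries were raised as well, at 86.7, 53.4 and 56.3 RPM per kb, and the 4 S2 cell ChIP-seq libraries held at most 2 reads each. A signal that all antibodies share is not particular to Pol II, and the part of copy number or of mapping in it was not tested. Of the 3974 tiles higher in bam testis, 32 were past the threshold in all 4 bam testis libraries, and of the 3566 higher in S2 cells, 20 were so in all 4 S2 cell libraries.

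The 5 named regions higher in S2 cells were denser. They were chosen in the same way, so the same limit holds for their differences and intervals. The longest of them, chr2R:1609501-1628000, had 4.83 RPM per kb in bam testis and 103 RPM per kb in S2 cells, a 21.2-fold difference (17.7 to 25.7). In S2 cells it also held 79.9 RPM per kb of H3K4me3, the mark of active promoters, and 31.0 RPM per kb of RNA. It held 18.2 RPM per kb of H3K27me3, the mark laid by Polycomb, in bam testis and 2.59 RPM per kb in S2 cells. The other 4 named regions held less H3K27me3 in bam testis, at 2.95 to 8.85 RPM per kb, than in S2 cells, at 5.40 to 12.1 RPM per kb. The run at chr4:1289501-1293000 was 25.6-fold higher in S2 cells (18.3 to 36.9), with 7.45 RPM per kb in bam testis and 191 RPM per kb in S2 cells. The runs at chr3L:626001-637000, chr3L:648501-650500 and chr3R:25548001-25550500 were 10.1-fold, 10.6-fold and 12.8-fold higher in S2 cells.

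Some tiles were dense in both, and these too were chosen on the reads that give their values. The densest tile of bam testis, chr3L:3196001-3196500, had 307 RPM per kb in bam testis and 336 RPM per kb in S2 cells, a ratio of 0.91 whose interval (0.76 to 1.09) held 1. The tile at chr2R:16161501-16162000 had 253 RPM per kb in bam testis and 206 RPM per kb in S2 cells, a ratio of 1.23 (0.997 to 1.52). In contrast, chr2R:8868001-8868500 had 207 RPM per kb in bam testis and 615 RPM per kb in S2 cells. The study prints the coordinates of 2 regions, defined in embryos, that overlap the promoters of hedgehog (hh), which encodes a signalling ligand, and of CG9610. These regions are not the genes themselves. In the hh region Pol II was at 10.7 RPM per kb in bam testis (28 reads) and 5.61 RPM per kb in S2 cells (21 reads), both under the threshold. In the CG9610 region it was at 22.98 RPM per kb in bam testis (36 reads) and 4.90 RPM per kb in S2 cells (11 reads), a 4.69-fold difference (2.34 to 10.2).

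The shape of the peaks was compared at the 1000 densest sites of each library, chosen on a random part of the reads and measured on an equally large, separate part, at equal depth in both libraries. The lists shared 476 sites (47.6% of each), with centres within 250 bp, and these were centred on the S2 cell peak in both libraries. At these shared sites the centre (250 bp to each side) averaged 81.7 RPM per kb in bam testis and 245 RPM per kb in S2 cells, 2.99-fold higher in S2 cells. In the reads that chose it, a shared site had to reach 62.6 RPM per kb in bam testis but 144 RPM per kb in S2 cells. The choice of sites therefore favoured a higher centre in S2 cells. The flanks, from 500 to 1000 bp on both sides, averaged 21.4 RPM per kb in bam testis and 27.1 RPM per kb in S2 cells. These flanks were 3.60 times the median tile of bam testis and 6.52 times that of S2 cells. The ratio of centre to flank was thus 3.81 in bam testis (3.70 to 3.93) and 9.02 in S2 cells (8.81 to 9.24). After subtraction of the level 3 to 5 kb away (13.8 RPM per kb in bam testis and 15.3 RPM per kb in S2 cells), the ratio was 8.90 in bam testis and 19.4 in S2 cells. The peaks differed mainly in height. The width of the mean profile, midway between its summit and the level 3 to 5 kb away, was 207 bp in bam testis and 174 bp in S2 cells, and this gap of 33.2 bp was smaller than the 50-bp bin of the profile. It was 24.8 bp with the bam testis peaks as centres and 20.1 bp with no shift of the reads. The widths themselves depended on the shift: with 40 bp they were 171 bp in bam testis and 138 bp in S2 cells. At all 1000 sites of the bam testis list, which S2 cell reads did not choose, the differences in height and ratio were smaller. The centre there averaged 69.1 RPM per kb in bam testis and 151.5 RPM per kb in S2 cells (2.19-fold). The ratio of centre to flank there was 2.85 in bam testis (2.79 to 2.91) and 5.49 in S2 cells (5.40 to 5.59).

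**Figure D3:**
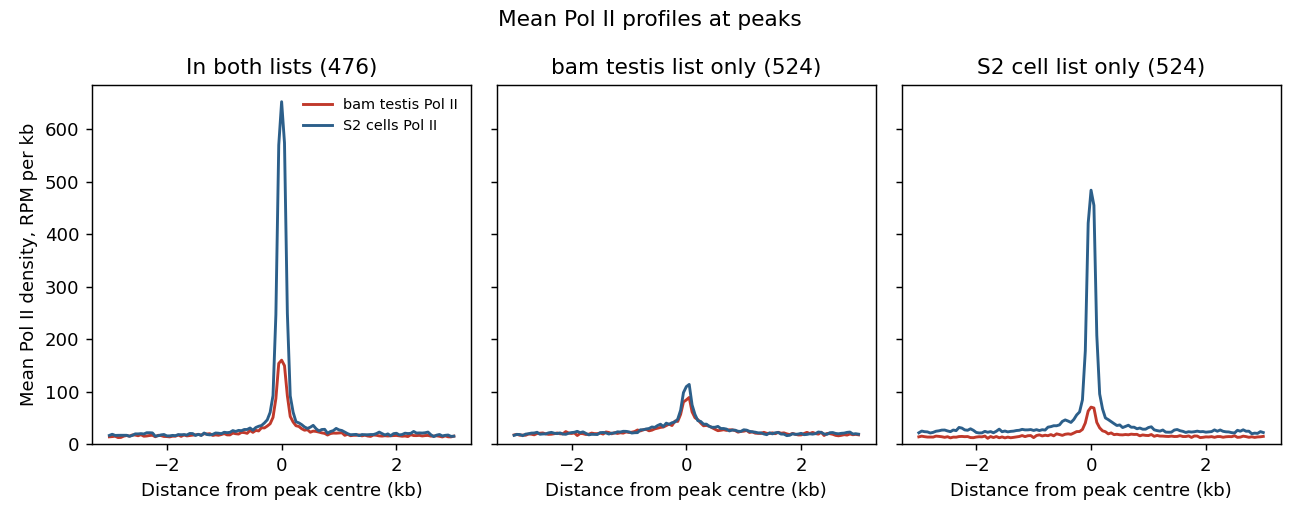
Mean Pol II density (RPM per kb) by distance from the peak centre (kb) in bam testis (red) and S2 cells (blue), at the 476 shared sites, the 524 sites of the bam testis list only and the 524 of the S2 cell list only. At shared sites the centre of bam testis is lower (81.7 against 245 RPM per kb) while the flanks differ less (21.4 against 27.1 RPM per kb). Over the median tile of each library the flanks stand at 3.60 in bam testis and 6.52 in S2 cells.

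Measured site by site, the centre over flank index of the study's kind put more sites of S2 cells in the stalled class. An index of 5 or more was found at 184 of the 476 shared sites in bam testis (38.7%, 34.4% to 43.1%) and at 400 in S2 cells (84.0%, 80.5% to 87.1%). An index of 3 or less, the active class, was found at 142 sites in bam testis (29.8%) and at 26 in S2 cells (5.46%). The median index was 4.24 in bam testis and 11.7 in S2 cells, and it was higher in bam testis at 26 of the 476 sites. Single indices rest on few flank reads, and a flank count under 3 reads was set to 3. The flanks of all 476 sites together held 6516 reads in bam testis and 8237 in S2 cells. At the 1000 sites of the bam testis list, an index of 5 or more was found at 258 in bam testis (25.8%) and at 543 in S2 cells (54.3%). There the index was higher in bam testis at 247 sites (24.7%). These windows were centred on Pol II peaks without regard to genes or strand, so they give the shape of a peak and not the stalling of a named gene. The site at chr3R, position 17445026, had an index of 11.8 in bam testis (148 RPM per kb at the centre) and 29.8 in S2 cells (513 RPM per kb). At chr2L, position 3478526, the order was the other way, with 6.78 in bam testis and 2.62 in S2 cells, where the flank held 246 RPM per kb.

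**Figure D4:**
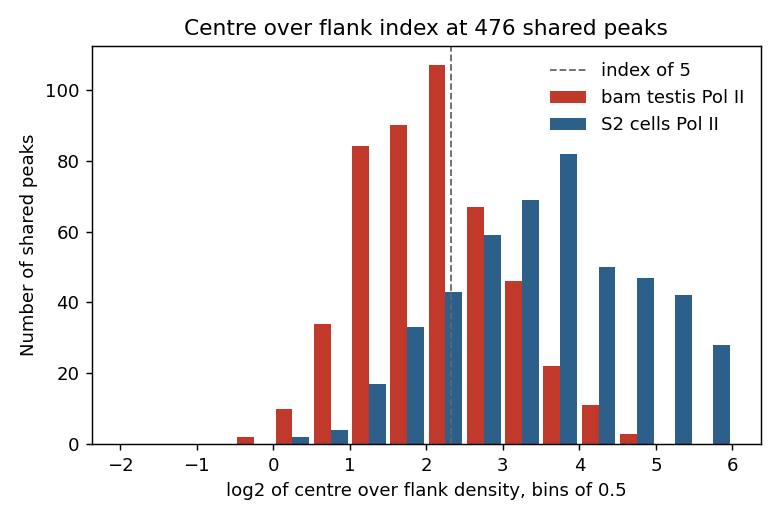
Number of the 476 shared sites by log2 of the centre over flank index, in bins of 0.5, for bam testis (red) and S2 cells (blue), with an index of 5 dashed. An index of 5 or more is reached at 184 sites in bam testis and at 400 in S2 cells.

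The unshared sites of each list depend on where the lists end, which was at 62.6 RPM per kb in bam testis and 144 RPM per kb in S2 cells in the reads that chose them. A site of the bam testis list only can therefore be dense in S2 cells too, whereas a site of the S2 cell list only is dense in S2 cells by choice, so the values are a description. At the 524 sites of the bam testis list only, the centre averaged 57.6 RPM per kb in bam testis and 67.1 RPM per kb in S2 cells. With the 2000 densest sites of each library this order was lost, with centres of 41.9 RPM per kb in bam testis and 41.8 RPM per kb in S2 cells at 1055 such sites, and a ratio of centre to flank of 1.80 in bam testis and 1.73 in S2 cells. The 524 sites had a ratio of 2.17 in bam testis and 2.38 in S2 cells, and an index of 5 or more at 14.9% in bam testis and 27.7% in S2 cells. At the 524 sites of the S2 cell list only, which S2 cell reads had chosen, the centre averaged 40.2 RPM per kb in bam testis and 196 RPM per kb in S2 cells, with a ratio of 2.28 in bam testis and 6.07 in S2 cells. Within the bam testis list the ratio was lower in weaker sites of both libraries: the 250 highest had 3.49 in bam testis and 7.08 in S2 cells, and the 250 lowest 2.41 in bam testis and 4.07 in S2 cells.

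The flanks were also compared by side. Shared sites were oriented by the H3K36me3 of the same sample, a mark of transcribed gene bodies, where 1 side held at least 1.5-fold more. At 321 oriented sites of bam testis, Pol II 0.5 to 1 kb away was 1.02 times as dense on the H3K36me3 side (0.959 to 1.079), and at 364 sites of S2 cells it was 1.28 times as dense (1.22 to 1.35). From 1 to 2 kb the ratios were 1.09 in bam testis (1.04 to 1.15) and 1.19 in S2 cells (1.14 to 1.24), and from 2 to 5 kb they were 1.21 in bam testis (1.18 to 1.25) and 1.22 in S2 cells (1.19 to 1.25). The contrast 0.5 to 1 kb away was smaller at the full lists of 1000 peaks. At the bam testis list the ratio there was 1.12 in bam testis (1.076 to 1.166, 614 oriented sites) and 1.23 in S2 cells (1.18 to 1.27, 711 oriented sites). At the S2 cell list it was 1.03 in bam testis (0.989 to 1.080, 618 oriented sites) and 1.13 in S2 cells (1.09 to 1.16, 740 oriented sites). With each library at its own list, and so at different sites, the ratios were thus close.

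The histone marks and RNA, which the Pol II calls did not use, were read at the same tiles. Tiles higher in bam testis passed the threshold for bam testis H3K4me3 at 20.4% (19.2% to 21.7%; all tiles 10.6%) and for S2 cell H3K4me3 at 3.9% (all tiles 7.46%). Tiles higher in S2 cells passed for bam testis H3K4me3 at 13.2% (12.1% to 14.4%) and for S2 cell H3K4me3 at 41.6% (39.98% to 43.21%). S2 cell RNA had a median of 0 at tiles higher in bam testis and 4.66 RPM per kb at tiles higher in S2 cells. The median over all tiles was 0 as well, and RNA passed the threshold at 12% of tiles higher in bam testis, 31.0% of tiles higher in S2 cells and 12.4% of all tiles. The H3K4me3 share therefore lay above that of all tiles in the sample where Pol II was higher, and, by less, in bam testis at tiles higher in S2 cells. H3K27me3 passed at 10.9% of tiles higher in bam testis in the bam testis library (all tiles 12.5%), and at 3.898% of tiles higher in S2 cells in the S2 cell library (all tiles 19.9%). In the opposite libraries it passed at 19.1% (S2 cells) and 12.3% (bam testis). H3K36me3 followed the calls less clearly than H3K4me3. It passed at 27.4% (bam testis) and 22.0% (S2 cells) of tiles higher in bam testis. At tiles higher in S2 cells it passed at 19.7% in both (all tiles 16.35% in bam testis, 16.1% in S2 cells). At 28 RPM per kb or more in the higher library, it passed at 33.2% (bam testis) and 29.3% (S2 cells) of tiles higher in bam testis. Of such tiles higher in S2 cells it passed at 15.9% (bam testis) and 20.8% (S2 cells). The 476 shared peaks were read in wider windows, 500 bp to each side of the S2 cell centre, and no share over all such windows is given. In these windows H3K4me3 passed at 45.0% in bam testis and 83.8% in S2 cells.

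The X chromosome had less Pol II than the large autosome arms in both samples, and more so in bam testis. Pol II density on X was 0.61 times that of 2L, 2R, 3L and 3R in bam testis (0.60 to 0.61) and 0.72 times in S2 cells (0.72 to 0.72). The marks were below 1 as well: X stood at 0.50, 0.58 and 0.69 for H3K4me3, H3K27me3 and H3K36me3 in bam testis, and at 0.62, 0.50 and 0.59 in S2 cells. The copy number of X and the occupancy per copy cannot be told apart here. Tiles higher in bam testis made up 0.73% of X (0.66% to 0.81%) and 1.83% of the autosome arms (1.77% to 1.89%), and tiles higher in S2 cells made up 1.88% of X (1.76% to 2.01%) and 1.36% of the autosome arms (1.31% to 1.41%). The X made up 44845 of the 240738 tiles. It held 5.3% of the bam testis peak list, 9.4% of the S2 cell list and 29 of the 476 shared peaks (6.09%). These 29 averaged 62.9 RPM per kb at the centre in bam testis and 216 RPM per kb in S2 cells, with a median index of 4.79 in bam testis and 19.6 in S2 cells. The 444 shared peaks of the autosome arms averaged 82.9 RPM per kb in bam testis and 247 RPM per kb in S2 cells. Chromosome 4, which is small and rich in heterochromatin, stood above the large arms in both, at 1.34 times in bam testis (1.32 to 1.35) and 1.30 times in S2 cells (1.28 to 1.31).

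**Figure D5:**
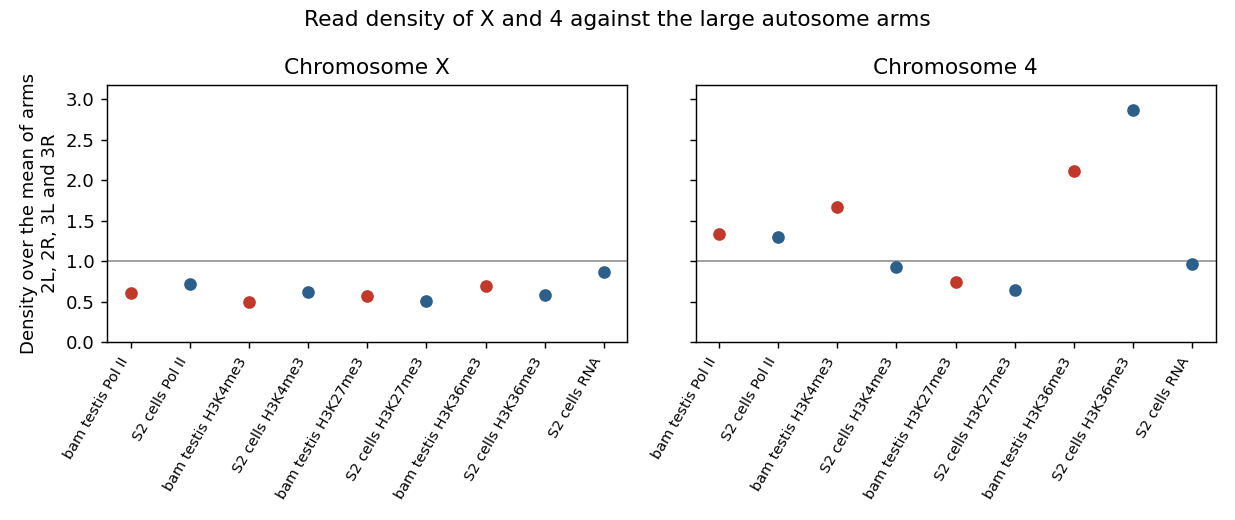
Read density of chromosomes X and 4 over that of arms 2L, 2R, 3L and 3R in each library, bam testis in red and S2 cells in blue, with 95% counting intervals smaller than the points. For Pol II, X stands at 0.61 in bam testis and 0.72 in S2 cells, and chromosome 4 at 1.34 in bam testis and 1.30 in S2 cells.

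The strand offset was similar in both libraries. Reads of opposite strands matched best at an offset of 70 bp in bam testis and 80 bp in S2 cells, against the 160 bp for which the shift of 80 bp was set.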

How the data were processed

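Reads of both Pol II libraries were deposited by the authors as BED positions, 1 line per uniquely aligned read (ELAND on dm3, up to 2 mismatches), with no pooling. The deposited score column was 0 throughout and was not used. At most 3 reads with the same 5′ position and strand were kept, 5′ ends were shifted 80 bp inward, and reads were counted in 500-bp tiles. Kept reads were 1342183 in bam testis and 1924876 in S2 cells. Densities are per kb and per 1000000 kept reads, with Wilson, exact Poisson or conditional binomial intervals (Python 3.11.15, numpy 2.4.6, scipy 1.17.1). Scripts were tested on simulated data. Peaks and regions were named by rule: the 5 runs of called tiles with the densest tile in each library, the 5 tiles densest in both, the 3 densest of each, and regions whose coordinates the study prints. The regions and lists were chosen with earlier results of these data known. Gene promoters, a stalling index per gene and gene lists were not analysed here, because no annotation of dm3 was used. Alternatives varied shift, copies, depth, tiles, scaling, thresholds and peak choice.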

Additional observations from a re-analysis of the deposited data

Results flagged for a closer look

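Pol II reads outside the 6 arms were in none of the comparisons. On the heterochromatic sequence XHet the density was 2.60 RPM per kb in bam testis and 28.5 RPM per kb in S2 cells. The other heterochromatic sequences were low in both: 2LHet had 2.50 in bam testis and 2.10 in S2 cells, 2RHet 2.91 in bam testis and 2.75 in S2 cells, 3LHet 2.97 in bam testis and 2.351 in S2 cells, 3RHet 2.65 in bam testis and 2.27 in S2 cells, and YHet 1.38 in bam testis and 0.73 in S2 cells, all in RPM per kb. The unplaced sequence U had 2.24 RPM per kb in bam testis, and the S2 cell reads used here hold none on it. No control library stands beside these values. Why the S2 cell reads hold none on U was not tested, nor whether this bears on the values of XHet.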

How the results depend on the processing

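No paired analysis was possible because there was 1 library per sample and the result comes from no test. Over 10 peak settings the centre to flank ratio at shared sites stayed higher in S2 cells, by 1.91-fold to 2.48-fold, and the width gap was 20.1 to 36.2 bp, always under the 50-bp bin. At sites of the bam testis list only, the top 2000 peaks turned the order of centre and ratio round. Leaving out peaks past the threshold in all 4 libraries removed 8 bam testis and 2 S2 cell peaks and no shared site. The shift of 40 bp, the 2 rescalings and centring on bam testis peaks were chosen after seeing the data.

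Tiles of 1000 bp gave 15669 occupied tiles in bam testis and 14822 in S2 cells, 8926 in both, 938 higher in bam testis and 1591 higher in S2 cells. A Poisson threshold of 0.001 at each depth gave 12169 in bam testis and 18170 in S2 cells, 7424 in both and 1092 higher in bam testis, so the share of calls higher in bam testis was 37.1% in 1000-bp tiles and 24.5% under this threshold. A 2-fold rule called 11145 tiles higher in bam testis and 11919 in S2 cells, and an 8-fold rule 240 in bam testis and 654 in S2 cells. Scaling to tiles occupied in both gave 50299 occupied tiles in bam testis, 9856 higher in bam testis and 2312 in S2 cells, and quantile matching 6093 higher in S2 cells. Quantile matching also lowered the floor of bam testis to that of S2 cells. Reads on the arms as the denominator gave 39703 occupied tiles in bam testis and 28594 in S2 cells. The densest 1% of tiles held 7.17% of bam testis reads and 15.5% of S2 cell reads at 1 copy, and 6.56% in bam testis and 15.9% in S2 cells in 1000-bp tiles, while S2 cells had 18.9% with no shift and 19.1% with a shift of 40 bp. Spearman rho was 0.537 with no shift, 0.544 at 1 copy, 0.514 thinned, 0.539 with tiles moved by 250 bp, 0.626 in 1000-bp tiles and 0.537 with a shift of 40 bp.

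The centre to flank ratio was 3.28 in bam testis and 7.69 in S2 cells for the top 2000 peaks, 3.62 in bam testis and 6.91 in S2 cells at 1 copy, and 9.52 in S2 cells for the top 500. Flanks over the median tile were 4.27 in bam testis and 7.58 in S2 cells for the top 500, 3.42 in bam testis and 5.88 in S2 cells for the top 2000, 3.37 in bam testis and 5.64 in S2 cells at 1 copy, and 3.47 in bam testis and 6.36 in S2 cells with centres 5 kb apart. By the median tile X stood at 0.50 in bam testis and 0.75 in S2 cells and chromosome 4 at 1.5 in bam testis and 1.25 in S2 cells, and at 1 copy X stood at 0.73 in S2 cells. At 1 copy H3K4me3 of bam testis passed at 18.2% of tiles higher in bam testis and 11.6% of those higher in S2 cells, and S2 cell H3K4me3 at 46.6% of those higher in S2 cells. The cause of these moves was not tested. With 1 library per sample, depth limits single tiles: 14 RPM per kb is 10 reads in bam testis and 14 in S2 cells.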
